A study of Arabidopsis thaliana with 2 samples.

Results

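Loci annotated as ribosomal proteins were followed in long reads of Arabidopsis thaliana floral buds. A member was a nuclear protein-coding locus of the RefSeq annotation of TAIR10.1 whose mRNA product holds the words "ribosomal protein" and none of kinase, plastid, chloroplast, mitochondr, methyltransferase or ubiquitin. This rule took 327 of 27444 nuclear protein-coding loci. It uses names, not reads. The plants were wild type Col-0 without treatment, grown in long days, and 2 biological replicates of inflorescences with unopened buds gave 1 PacBio Iso-seq library each. No second condition was sampled, so the comparisons are between the members and all protein-coding loci, among the members, and between the 2 libraries. Both libraries are bulk tissue, in which more cells of a type and more RNA per cell cannot be told apart.

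Ribosomes translate mRNA, and each cytosolic ribosome joins a small 40S and a large 60S subunit built of rRNA and many proteins. In plants these proteins are encoded in the nucleus by small families of paralogues, and their mRNAs are abundant in growing tissue such as young flowers. Plastids and mitochondria have ribosomes of the bacterial type, and most of their proteins are also encoded in the nucleus. The products showed that the rule does not isolate cytosolic ribosomes. By product name and family, 196 members were of the cytosolic type, 93 belonged to bacterial-type families of the organelles, and 38 were other products such as the elongation factor 2 gene LOS1 (AT1G56070). Values are therefore given for all members and for the cytosolic-type and organellar-type members apart. The rule also leaves out true cytosolic ribosomal protein genes under other product names, among them SAG24 (AT1G66580), RPL3B (AT1G61580), AT2G19730 and the ubiquitin fusions UBQ1, UBQ5 and UBQ6.

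Replicate 1 held 261570 nuclear reads and replicate 2 held 247839. Floral organ identity genes were present, with 79 reads in each replicate for SEP3 and 50 and 53 for PI, whereas the root markers PYK10 and EXPA7 had 0 reads. A count of 0 allows up to 11.5 RPM (the count of a gene scaled to 1000000 nuclear reads) in replicate 1 and 12.1 in replicate 2. The libraries differed in the length of the molecules they favoured. Over genes with at least 10 reads, the median log2 ratio of replicate 2 over replicate 1 was -0.24 for transcripts over 600 and up to 900 nt and 0.82 for those over 2400 nt. The annotated mature transcript had a median of 966 nt in the members, 913 nt in the cytosolic-type members and 1472 nt over all protein-coding loci. Wilson intervals below are 95% intervals and cover counting error only. Those of the share of nuclear reads are of single libraries, and those of motifs and retained introns use both libraries together.

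The regions around the most used capped starts carry short sequences known from plant ribosomal protein promoters. Site II elements are bound by TCP transcription factors, and the telobox resembles the telomere repeat. The TATA box places the transcription machinery. Below are the 130 nt upstream and the first 10 nt of the transcript for the 4 cytosolic-type members with the most reads, for RPS6 and RPS5A, which are used again below, and for RPL12-A, an organellar-type member without either motif here. The last 3 were chosen after their values were seen. Capitals mark site II (TGGGCC or TGGGCT) and the telobox (AAACCCTA) on either strand, and overlapping matches run together. Sequence is from the RefSeq genome of TAIR10.1, written 5′ to 3′ in the direction of transcription.
RP1 (AT1G43170), chr1:16266621-16266760, forward strand: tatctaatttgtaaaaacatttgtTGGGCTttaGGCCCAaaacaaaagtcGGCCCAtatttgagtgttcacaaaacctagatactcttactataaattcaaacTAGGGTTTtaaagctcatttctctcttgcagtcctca
AT5G20290, chr5:6853043-6853182, reverse strand: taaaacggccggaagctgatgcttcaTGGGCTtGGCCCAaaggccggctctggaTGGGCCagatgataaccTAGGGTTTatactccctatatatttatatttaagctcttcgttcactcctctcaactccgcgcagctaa
AT5G02870, chr5:657679-657818, forward strand: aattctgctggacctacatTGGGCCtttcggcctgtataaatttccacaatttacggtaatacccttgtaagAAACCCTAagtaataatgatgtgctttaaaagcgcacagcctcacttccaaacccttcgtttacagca
P40 (AT1G72370), chr1:27244898-27245037, reverse strand: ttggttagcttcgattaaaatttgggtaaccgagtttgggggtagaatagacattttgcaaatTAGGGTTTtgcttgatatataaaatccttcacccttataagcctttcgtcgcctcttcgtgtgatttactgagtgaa
RPS6 (AT4G31700), chr4:15347718-15347857, reverse strand: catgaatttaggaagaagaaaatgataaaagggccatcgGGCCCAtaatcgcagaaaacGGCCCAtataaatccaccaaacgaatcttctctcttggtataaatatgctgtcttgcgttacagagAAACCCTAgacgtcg
RPS5A (AT3G11940), chr3:3779489-3779628, reverse strand: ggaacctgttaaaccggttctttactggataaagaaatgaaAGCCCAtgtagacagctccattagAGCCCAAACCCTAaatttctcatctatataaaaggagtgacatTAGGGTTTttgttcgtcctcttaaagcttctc
RPL12-A (AT3G27830), chr3:10318377-10318516, forward strand: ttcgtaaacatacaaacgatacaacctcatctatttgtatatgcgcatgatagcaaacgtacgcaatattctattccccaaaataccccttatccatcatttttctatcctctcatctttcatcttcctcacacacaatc
RP1 had 3 site II matches and 1 telobox in its window, and AT5G20290 had the same numbers. AT5G02870 had 1 of each, P40 had a telobox only, and RPS5A had 2 of each. In RPS6 the telobox lay across the capped start itself.

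The members were far more deeply read than most genes. Nuclear reads from them made up 7.54% of the library in replicate 1 (Wilson interval 7.44 to 7.64). In replicate 2 the share was lower, at 6.60% (6.50 to 6.69), and both replicates averaged 7.07% ± 0.669 (SD, n = 2). Cytosolic-type members accounted for 6.02% ± 0.697, organellar-type members for 0.699% ± 0.00307, and other products for 0.346% ± 0.0310. The median member had 126 RPM in replicate 1 and 113 in replicate 2, against 7.65 and 8.07 over all protein-coding loci. Medians were 240 and 222 RPM for the cytosolic-type members and 42.1 and 36.3 for the organellar-type members. Reads were seen at 310 of the 327 members, and 295 had them in both replicates. Depth was spread over many loci, since the 10 most-read members held 18.6% of the member reads.

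RP1 (AT1G43170), an L3 gene of the large subunit, had the most reads, 576 in replicate 1 and 469 in replicate 2. AT5G20290, an S8e gene of the small subunit, followed with 405 and 372. The L4 gene AT5G02870 had 386 and 316.5, a fraction that comes from reads with several alignments. These 3 genes kept the same order in both libraries. P40 (AT1G72370), the SA protein of the small subunit, had 355 and 294.33 reads, and AT2G41840 of the S5 family had 360 and 285.5. AT5G15200, S4 by its product name, had 328 and 280 reads. EMB2296 (AT2G18020), of the L2 family by its product name, had 324 and 269.5. AT3G09200, of the L10 family, had 306.5 and 264. ATL5 (AT3G25520), whose L5 protein binds 5S rRNA, had 290.5 and 261 reads. The next was LOS1, with 215 and 335.33, the only gene of these 10 with more reads in replicate 2.

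Among the cytosolic-type members, 77 had a product name of the small subunit, 98 of the large subunit and 21 of neither or of both. The small subunit held 37.1% and 37.4% of the cytosolic-type reads in replicates 1 and 2. The large subunit held 49.5% and 49.1%. These shares moved by less than 1 percentage point between the libraries.

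Of the members, 17 had 0 reads. Among them were 10 of the cytosolic type: AT1G12960, AT1G33850, AT1G36240, AT2G47570, AT3G10950, AT3G48960, AT3G51190, AT3G61111, AT5G09490 and AT5G24510. A further 6 were of the organellar type, RPL12-B (AT3G27840), AT2G03130, AT2G07675, AT2G07696, AT2G07734 and AT5G51610, and AT5G19720 completes the list. Under 10 reads in all were seen at 23 cytosolic-type members, these 10 included.

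**Figure D1:**
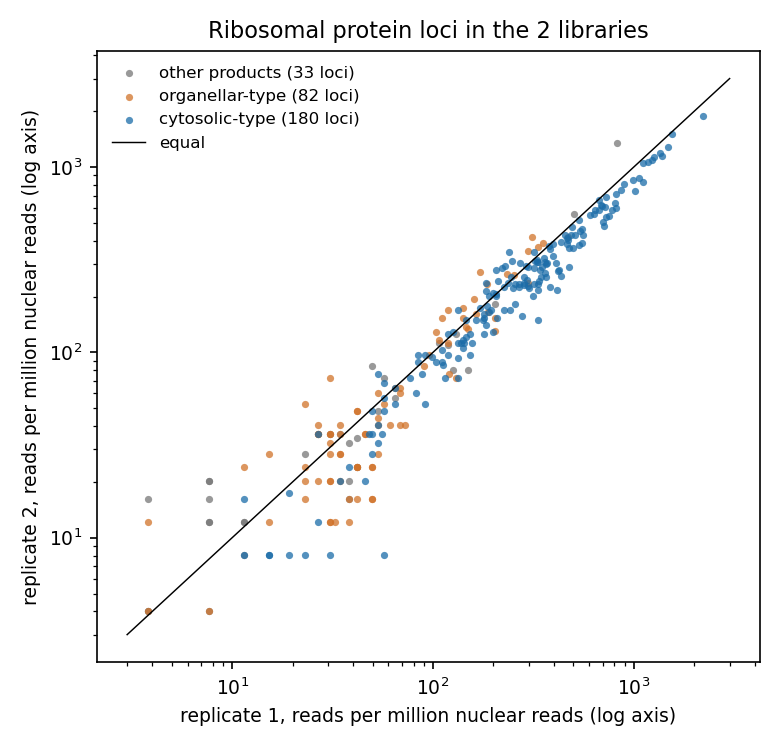
RPM of each member with a read in both libraries, replicate 1 against replicate 2, both on log axes. Blue points are cytosolic-type, orange organellar-type and grey other products, and the line marks equal values. Most blue points lie below the line, and LOS1 is the grey point far above it at the upper right.

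The libraries were compared gene by gene with a two-sided Fisher's exact test on counts rounded to whole numbers, adjusted by Benjamini-Hochberg over the 9792 protein-coding loci with at least 10 reads. This compares the 2 libraries, not conditions. Of the 271 members tested, 2 were higher in replicate 1 and 1 in replicate 2. Over all loci tested, 0.245% were higher in replicate 1 and 0.929% in replicate 2. At an unadjusted p under 0.05 there were 35 members, 12.9% of those tested, beside 10.5% of all loci. LOS1 had 822 RPM in replicate 1 and 1353 in replicate 2 (log2 ratio 0.72, adjusted p = 7.24e-06, Fisher's exact test). RS27A (AT3G61110), a small subunit zinc-finger protein, went from 333 to 149 RPM (log2 ratio -1.14, adjusted p = 0.00625, Fisher's exact test). AT1G01100, a 60S acidic protein of the ribosomal stalk that contacts elongation factors, went from 417 to 218 RPM (log2 ratio -0.93, adjusted p = 0.0130, Fisher's exact test).

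The shift was broad among cytosolic-type members. Of 173 with at least 10 reads, 148 had a higher RPM in replicate 1, and their median log2 ratio of replicate 2 over replicate 1 was -0.23, beside 0.00 over all loci tested. Length differs between the groups compared, and its part in this shift was not tested. Among cytosolic-type members the median ratio was -0.24 over 600 and up to 900 nt, -0.22 up to 1200 nt and -0.23 up to 1800 nt. All genes stood at -0.24, -0.16 and -0.16 there. Up to 600 nt it was -0.35 for 10 cytosolic-type members and -0.13 for all 116 genes. Over genes from 681 to 1412 nt, the 10th and 90th percentiles of the members' lengths, it was -0.21 for 140 cytosolic-type members and -0.17 for all 3024 genes. Scaling to the totals of these genes alone shifts every log2 ratio by the same amount, and the 2 medians became -0.07 and -0.04. With that scaling 0 of 217 members passed Fisher's exact test after adjustment, beside 0.298% of all genes in the range, and 14 members (6.45%) had an unadjusted p under 0.05, beside 5.82%.

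How reads were split among paralogues differed between families. Proteins of at least 60% identity over at least 70% of both lengths were joined, which gave 81 families of 2 or more loci with 216 members. Of these, 70 had at least 50 reads, 66 of them cytosolic-type. The most-read paralogue held a median of 60.2% of its family's reads, 62.2% in replicate 1 and 59.6% in replicate 2. It was picked from the same reads, so its share is at least 50% in a pair and counting error can raise it. The share under equal output was not computed, so the median alone does not show unequal output. The same locus led in both replicates in 63 of the 70 families.

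The leader held at least 90% of the reads in 9 families. In 2 of them it held 100% in each replicate: AT3G60245 had 185 and 119 reads against 0 for AT3G10950, and AT5G23900 had 47 and 40 against 0 for AT3G48960. AT5G02960, of the S12/S23 family, had 213 and 178 reads, and its paralogue AT3G09680 had 3 and 0. AT5G20290 had 99.2% ± 0.313 (SD, n = 2) of the S8e reads, and P40 had 97.5% ± 0.731 of the SA reads. High protein identity did not go with equal depth in every family. SAC52 (AT1G14320), an L10e gene named for suppression of a dwarf mutant, had 196 and 134 reads, whereas RPL10B (AT1G26910), whose protein is 98.2% identical, had 5 and 4.33. Only members were joined into families, so ribosomal protein genes that the rule leaves out count in none of these shares. SAG24 (AT1G66580), left out by its product name, had 109 and 70 reads, so SAC52 is not shown to be nearly the only source of its protein.

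The lowest leading shares were in families of 3 or more loci, which follows from how the leader was picked. In a pair the leader has at least as many reads as its paralogue, so its share cannot fall as low. The 5 loci of the L41 family, the smallest ribosomal protein, were led by AT3G56020 with 29.4% ± 2.33 (SD, n = 2). AT2G37190 held 40.2% ± 3.94 of an L11 family of 3 loci, AT3G53870 held 41.4% ± 1.14 of the S3 reads, AT1G18540 held 42.7% ± 4.09 of the L6 reads, and AT4G29390 held 44.1% ± 3.04 of the S30 reads. In the S3 family, AT3G53870 had 189 and 150 reads and AT2G31610 had 183 and 125. In 7 families the leader changed between the libraries. In one of them, the acidic stalk proteins, AT1G01100 had 109 and 54 reads and AT5G47700 had 60 and 72.

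**Figure D2:**
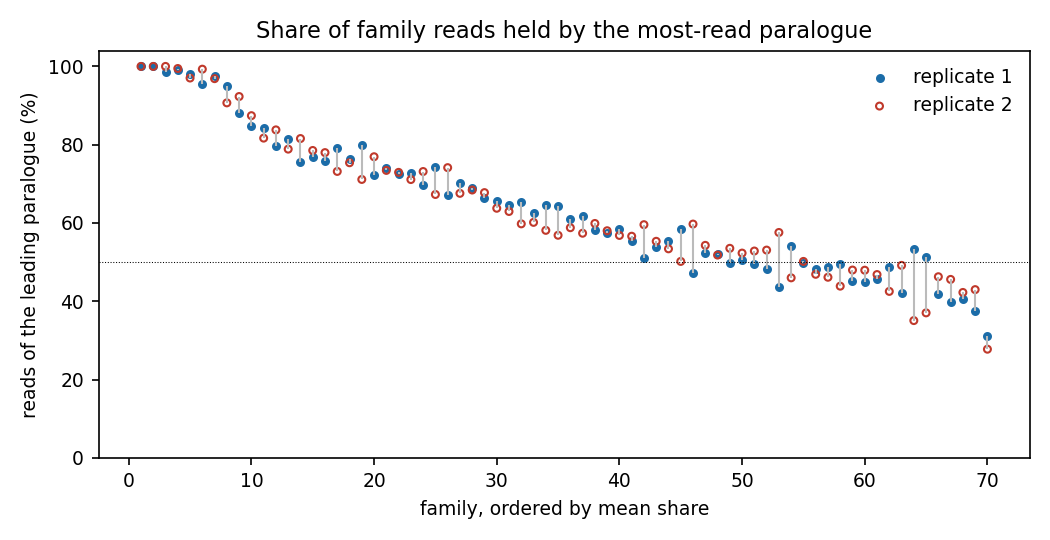
Share of a family's reads held by its most-read paralogue, in percent, for the 70 families with at least 50 reads, ordered by mean share. Filled points are replicate 1, open points replicate 2, grey lines join them, and the dotted line marks 50%. Shares run from 100% to 29.4%.

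Several members are known from developmental mutants, and they sat at different depths within their families. RPS5A (AT3G11940), whose loss stops embryos, had 191 and 170 reads, and RPS5B (AT2G37270) had 59 and 55.5. RPS5A held 76.4% and 75.4% of the pair in the 2 replicates. The S6 genes, whose proteins are phosphorylated downstream of TOR kinase, were RPS6 with 227 and 186.5 reads and EMB3010 (AT5G10360) with 119 and 106. ATL5 and RPL5B (AT5G39740), both L5 genes tied to leaf polarity, were closer, at 290.5 and 261 against 234.5 and 200. The L23a gene RPL23AA (AT2G39460) had 128 and 107 reads, and RPL23AB (AT3G55280) had 24 and 24. STV1 (AT3G53020), an L24 gene needed for gynoecium patterning, had 124 and 91 reads, and PFL (AT1G22780), an S18 gene named for its pointed first leaves, had 54 and 69. PGY1 (AT2G27530), an L10a gene, had 158 and 137, and PGY2 (AT1G33140), an L9 gene, had 122 and 102.

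Genes outside the rule that work with ribosomes spanned a similar range. The ubiquitin fusions UBQ1 (AT3G52590) and UBQ5 (AT3G62250), which release a ribosomal protein, had 219 and 182 reads and 178 and 134 reads. The RACK1 scaffold genes ATARCA, RACK1B_AT and RACK1C_AT had 88.2 and 68, 105 and 68, and 44 and 27 reads. TCTP (AT3G16640) had more than any member, 650 and 569. The nucleolar genes NUC-L1 and FIB1 had 180 and 175 reads and 100 and 78. TCP20 (AT3G27010), a factor that binds site II elements, had 2 and 1 reads.

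Total depth also differed between families, although most of these proteins stand once in each ribosome. Over the 66 cytosolic-type families it ran from 87 to 986 reads with a median of 394. Among these families the L5 pair had the most, 986 (525 and 461 in replicates 1 and 2), then the L4 pair with 899. The 111 members joined to no other are not in this range. One of them, the L3 gene RP1, had more reads than the L5 pair, 576 and 469. Across these 66 families, reads and the median annotated length had a Spearman correlation of 0.63. The points share the 2 libraries, and families are not independent replicates.

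The reads of the members carried cap labels slightly more often than those of all genes. A cap label marks an extra G at the 5′ end that the genome does not encode, which reverse transcriptase adds opposite the cap. It was present on 63.1% of member reads in replicate 1 and 63.5% in replicate 2, against 58.0% and 59.6% over all protein-coding loci. Cytosolic-type members were at 64.0% ± 0.338 (SD, n = 2) and organellar-type members at 59.1% ± 1.38. LOS1, with its long transcript, stood at 50.7%, and AT3G09200 at 75.5%. A start directly after a genomic G cannot receive the label, so starts of that kind are missed in the values below.

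At least 10 cap-labelled reads were present at 243 members, 167 of them cytosolic-type. The main start, the position with the most cap-labelled reads, was narrow in the cytosolic-type members. A median of 77.4% of their cap-labelled reads began within 5 nt of it, compared with 50% in organellar-type members and 53.6% over all 6285 genes of this depth. At least 50% lay within 5 nt in 139 of 167 cytosolic-type and 31 of 61 organellar-type members, beside 56.9% of all genes. Where both replicates had 10 cap-labelled reads, the main start lay within 5 nt in 135 of 148 cytosolic-type members. The same count over all genes is not given here, so this agreement is not shown to be particular to them. The first base was A in 82, G in 64, C in 20 and T in 1 of the 167, that is A in 49.1% and C in 12%. Over all 6285 genes it was A in 64.4%, G in 30% and C in 5.36%, and in organellar-type members A in 77.0%. In vertebrates, ribosomal protein mRNAs start with C and a run of pyrimidines.

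The main start lay inside the annotated transcript. It was a median of 47 nt downstream of the nearest annotated start in cytosolic-type members and 59 nt over all genes. It lay within 10 nt of an annotated start in 29 of 167 cytosolic-type members and in 1161 of 6285 genes, a similar share. Leaders, counted from the main start to the start codon without introns, were accordingly shorter than annotated in 164 cytosolic-type members. Their median was 59 nt (quartiles 44.3 and 73, n = 166). It was 59 nt over 240 members, 57 nt in 59 organellar-type members and 82 nt over 6074 genes. Only 3 cytosolic-type leaders were longer than 100 nt, and 19 were shorter than 30 nt. Leaders of up to 100 nt made up 98.19% in cytosolic-type members, 83.05% in organellar-type members and 61.05% over all genes. Those of up to 25 nt made up 9.04%, 11.86% and 8.45%. Very short leaders in cytosolic-type members were thus close to the background, and the difference lay in the few long ones. Large subunit genes had a median leader of 50.5 nt (n = 86) and small subunit genes 70.5 nt (n = 62).

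The shortest leaders, 7 nt each, belonged to AT1G58983, AT1G59359 and AT1G58684, S5 family genes on chromosome 1. All of their reads had fractional counts, so reads were split among near-identical copies and the 3 values are not separate measurements. Next came AT5G48760, in a family with an L13 product name, with 11 nt, and AT1G04480, an L14p/L23e gene, with 12 nt. In AT5G48760 only 28.9% of the 45 cap-labelled reads lay within 5 nt of the main start, whereas in AT1G04480 the share was 92.1% of 38. RPS6 had a leader of 13 nt in 116 of its 118 cap-labelled reads, beside 90 nt in the annotation. EMB3010, its paralogue, had 85 nt. The longest were AT2G40010 of the L10 family with 190 nt, AT5G27850 of the L18e/L15 family with 172 nt, MEE5 (AT1G06220), annotated in the elongation factor G family, with 156 nt, and the organellar-type AT2G44065 and AT2G18400 with 141 and 137 nt.

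**Figure D3:**
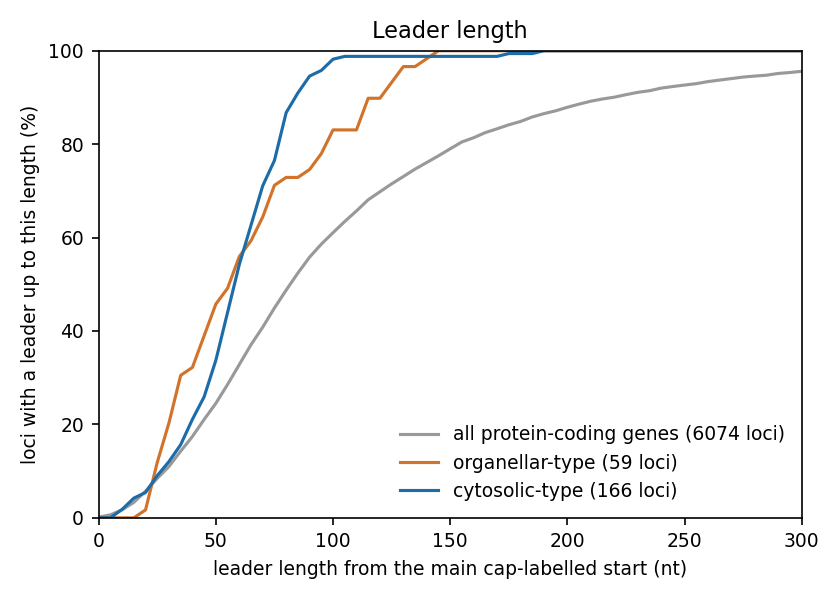
Cumulative share of loci, in percent, with a leader up to the length on the x axis (nt), for loci with at least 10 cap-labelled reads. The blue line is cytosolic-type members (median 59 nt), the orange line organellar-type members (57 nt) and the grey line all protein-coding loci (82 nt). The blue line is close to 100% by 100 nt while the grey line is not.

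Motifs were counted in the 200 nt upstream of the main start, over loci with at least 10 cap-labelled reads. TGGGCC and TGGGCT were searched on both strands as site II, and a match to TGGGCC can overlap one on the other strand. AAACCCTA was searched on both strands as the telobox. TATAAA or TATATA beginning 45 to 20 nt upstream, on the transcribed strand, was counted as a TATA box. A match is a description of letters, not of binding. Site II was found in 193 of 243 members (79.4%), beside 28% of all 6285 loci. It was found in 147 of 167 cytosolic-type (88.0%, Wilson interval 82.2 to 92.1) and 34 of 61 organellar-type members (55.7%, 43.3 to 67.5). At least 2 matches were present in 136 of the 167 and in 33 of the 61, beside 19.3% of all loci.

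The telobox was present in 115 of 167 cytosolic-type (68.9%, 61.5 to 75.4) and 8 of 61 organellar-type members (13.1%, 6.80 to 23.8), beside 7.48% of all loci. Extending the window to 50 nt downstream of the start raised the cytosolic-type share to 85.6% and that of all loci to 11.1%. Both motifs stood together in 103 of the 167, 44 had site II alone, 12 the telobox alone and 8 neither. Both together were found in 5 of 61 organellar-type members and 3.9% of all loci. Median depth in these 4 classes was 148, 132, 122 and 126.5 reads. A TATA box was found in 98 of 167 cytosolic-type (58.7%, 51.1 to 65.9) and 0 of 61 organellar-type members, a count that allows up to 5.92%, beside 26.6% of all loci.

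Each motif kept its own distance. Site II was most frequent from 100 to 76 nt upstream, where 107 of 167 cytosolic-type members (64.1%) and 11.4% of all loci had a match. Telobox matches fell into 2 zones, from 75 to 51 nt upstream in 62 members and from 25 to 1 nt upstream in 51, with 26 between. A further 20 had one from the start to 24 nt downstream. The median position was 99.5 nt upstream for site II and 42 nt upstream for the telobox. In the windows printed above, the site II copies of RP1, AT5G20290 and RPS6 stand ahead of the telobox.

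**Figure D4:**
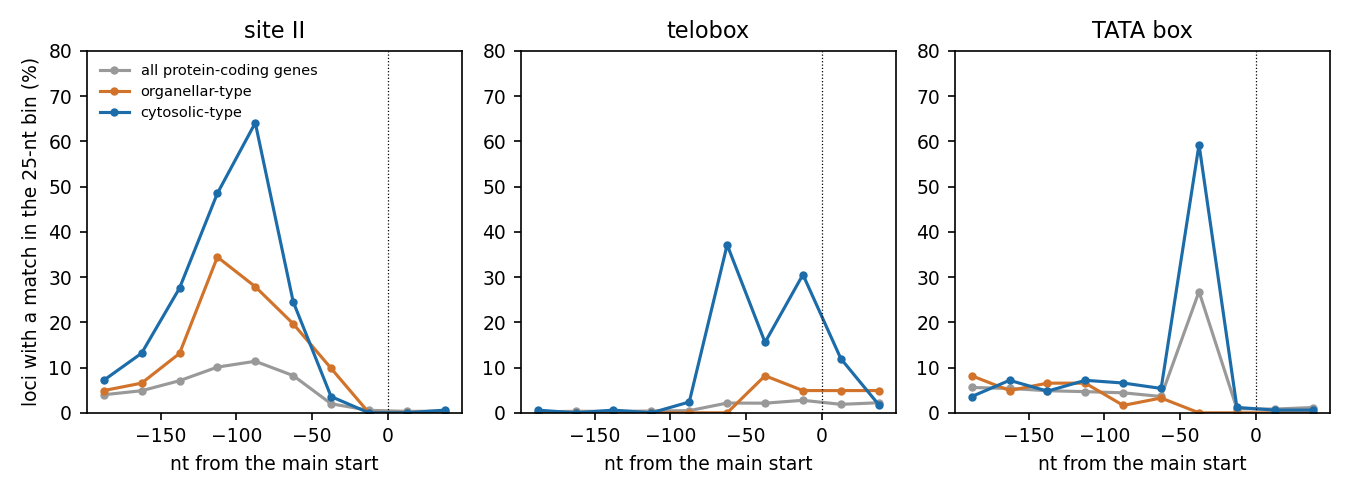
Share of loci, in percent, with a motif beginning in each 25-nt bin, by distance from the main cap-labelled start (0, dotted line), in 3 panels. Blue lines are the 167 cytosolic-type members, orange lines the 61 organellar-type members and grey lines all 6285 loci. Blue peaks at 64.1% for site II from 100 to 76 nt upstream, at 37.1% for the telobox from 75 to 51 nt and at 59.3% for the TATA box from 50 to 26 nt.

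An intron in the leader was an all-or-none feature of the members. Over genes with at least 10 cap-labelled reads that reach the start codon, 58 of 239 members had an intron there in at least 50% of these reads, and 20.4% of all 5924 genes did. The lowest share among the 58 was 85.7%, and the highest among the other 181 was 0%. Cytosolic-type members had 39 of 166 and organellar-type members 14 of 58, so that both were close to the background. Leaders with an intron were longer after splicing, 68 nt against 56 nt in cytosolic-type members.

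In part of these genes the leader intron was spliced in every cap-labelled read. Among the genes at 100%, those with the most such reads were taken, which gave 271 reads of LOS1 (chr1:20971112-20971665), 171 of the S7e gene AT5G16130 (chr5:5268540-5268973), 158 of AT1G15930 of the L7Ae/L30e/S12e family (chr1:5471463-5471647) and 157 of eEF-1Bb1 (AT1G30230), an elongation factor subunit (chr1:10638973-10639259). It also held for 116 reads of the L31e gene AT5G56710, 112 of the L36e gene AT3G53740, 108 of the S7e gene AT1G48830 and 98 of the S7e gene AT3G02560. All 3 of these S7e genes thus had one. Paralogues mostly shared the feature. Of 66 families with at least 2 measured members, 13 had it in each, 47 in none and 6 were mixed. Among the mixed ones, AT5G27850 had it and RPL18 (AT3G05590) did not, and the L39 gene AT2G25210 had it while AT4G31985 and AT3G02190 did not. Other deeply read genes were just below 100%: RP1 had the intron in 98.8% of 762 reads, RPS5A in 99.1% and RPS5B in 95.8%.

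A few cytosolic-type members had many reads without any 5′ label, and these reads began at an intron's 3′ end. Over all members, 4.28% of reads in replicate 1 and 3.71% in replicate 2 lacked a label, and 3.10% and 2.79% over all protein-coding loci. Of these ends, 54.6% and 55.4% lay within 3 nt of the first base after an annotated intron in the members, against 33.2% and 28.4% over all loci. Of 222 members with at least 20 reads, 4 had over 30% of reads unlabelled. Their unlabelled reads, 237.5 in RPS6, 138 in AT2G32060, 95 in PGY1 and 39 in AT5G22440, are part of the member shares above. Those shares were not computed without these 4 members, so a raised share in the other members is not shown. Windows of 26 nt around the splice acceptor where their ends gathered are printed to show that position, with the last 2 bases of the intron in capitals.
RPS6 (AT4G31700), chr4:15347611-15347636, reverse strand: tttcttcgtttcAGttcaacgttgcg
AT2G32060, chr2:13640148-13640173, reverse strand: catttccttggcAGatttggaaaaga
AT5G22440, chr5:7436504-7436529, reverse strand: atctccgtttacAGgaagcaaatttg
PGY1 (AT2G27530), chr2:11764593-11764618, reverse strand: cttattgttttcAGgatcagagattc
In RPS6, 227 of 413.5 reads, 131 in replicate 1 and 96 in replicate 2, began 2 nt ahead of the exon, at the A of this acceptor. AT2G32060, of the L7Ae/L30e/S12e family, had 69 and 62 such reads of 163, also 2 nt ahead. AT5G22440, an L1p/L10e gene, had 22 and 9 of 64, 4 nt ahead. PGY1 had 40 and 32 of 295, 5 nt ahead. Each of these 4 positions was used in both libraries.

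In cap-labelled reads from the main start the first exon was 19 nt in RPS6, 27 nt in PGY1, 30 nt in AT5G22440 and 50 nt in AT2G32060. Over members with at least 20 reads, a median of 7.66% of reads was unlabelled where the first exon had up to 30 nt (n = 15) and 2.13% where it was longer (n = 190). The same medians over all genes were 8.42% (n = 42) and 2.22% (n = 4692). RPL23AB with 28 nt had 0% and AT1G67430 with 28 nt had 2.34%, so a short first exon did not always go with unlabelled ends. Whether these ends are RNA ends was not tested. For these 4 genes the cap-labelled share and the leader describe only the labelled reads.

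**Figure D5:**
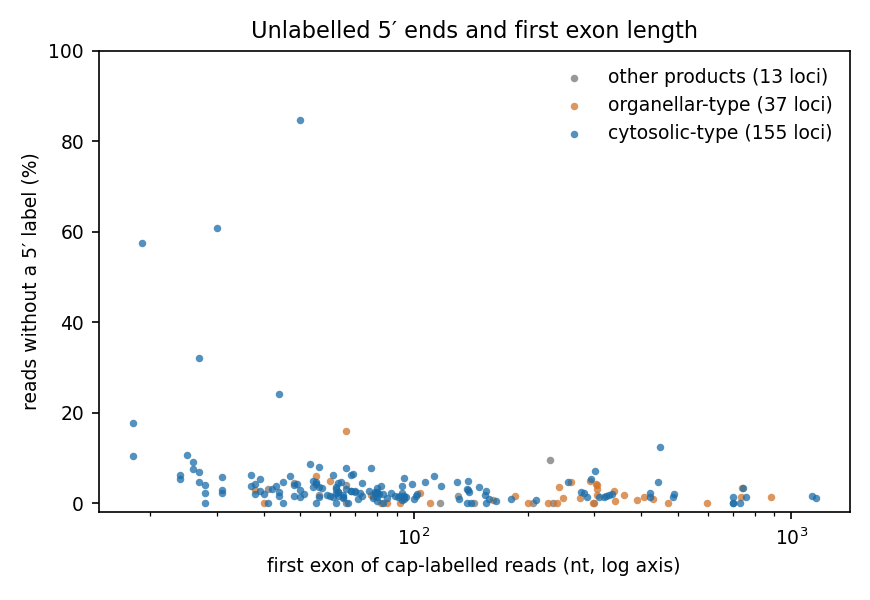
Percent of reads without a 5′ label against the length of the first exon in cap-labelled reads (nt, log axis), for members with at least 20 reads. Each point is a locus, blue cytosolic-type, orange organellar-type and grey other products. The highest points are AT2G32060 at 84.7%, AT5G22440 at 60.9%, RPS6 at 57.4% and PGY1 at 32.2%.

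Introns of the members were rarely retained. An intron was counted where at least 20 reads spanned it with 10 nt on both sides. Over 662 member introns, 0.201% of spanning reads in replicate 1 and 0.198% in replicate 2 kept the intron, compared with 0.533% and 0.567% over 24700 introns of all genes. The share was 0.165% ± 0.00964 (SD, n = 2) over 485 introns of cytosolic-type members. It was 0.737% ± 0.0574 over 113 of organellar-type members, which thus did not share the low value. Introns of the other products were not taken apart. Only 1 of the 662 was kept in at least 10% of reads, and 1.24% of all introns were. No retaining read was seen at 79.2% of the 662 and at 84.4% of all introns, without matching for depth. The lower share of the members is thus one of pooled reads. Introns in member leaders were kept in 0.378% ± 0.0755 of reads (45 introns) and those in coding sequence in 0.189% ± 0.00631 (614 introns).

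The highest values rested on few reads. The intron of AT1G29965, an L18ae-type gene, at chr1:10499245-10499358 was kept in 2 of 20 reads (10.0%, Wilson interval 2.79 to 30.1), both from replicate 1. Organellar-type genes made up most of the rest. RPL4 (AT1G07320) kept a 151-nt intron at chr1:2250022-2250172 in 5 of 66 reads (7.58%, 3.28 to 16.5). EMB3126 (AT3G63490) kept one at chr3:23444599-23444672 in 8 of 167.5 reads (4.78%, 2.43 to 9.11), 4 in each replicate. emb1473 (AT1G78630) kept one at chr1:29576249-29576556 in 7 of 154 reads (4.55%, 2.22 to 9.08). A leader intron of AT3G06040 and 2 coding introns of AT5G66860 each had 1 retaining read, and the S30 gene AT5G56670 had 2 of 45. These intervals overlap one another.

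The 3′ ends were uniform in the cytosolic-type members. Over loci with at least 10 ends carrying the 3′ label, which marks a poly(A) tail, the main end lay a median of 158 nt after the stop codon in cytosolic-type members (quartiles 137 and 178, n = 172). It was 168 nt in organellar-type members (n = 71), 161 nt over the members (n = 263) and 182 nt over all 8826 genes. Labelled ends were joined into a site where neighbouring positions lay up to 24 nt apart, so a site can reach farther than 24 nt. The site with the main end held a median of 99.2% of labelled ends in cytosolic-type members, 91.3% in organellar-type members and 89.7% over all genes. At least 2 sites, each with 10% of the ends and 3 reads, were seen in 44 of 264 members, and in 35.5% of all genes. This was 12 of 172 in the cytosolic type and 27 of 72 in the organellar type. The main ends of both replicates lay within 24 nt in 144 of 161 cytosolic-type members, a count not given here for all genes.

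The closest main ends were those of the organellar-type EMB3136 (AT5G13510) at 72 nt and PSRP3/1 (AT1G68590) at 78 nt. AT2G43030, AT3G54210 and the cytosolic-type AT4G36130, in a family with an L2 product name, were at 97 nt. The farthest were AT5G02740 of the S24e family at 318 nt and 4 organellar-type genes, AT3G12370 at 312 nt, AT1G07210 at 309 nt, AT3G49080 at 308 nt and AT1G64880 at 297 nt. The most dispersed ends were seen in AT5G02740, with 25% of 16 ends at its main site. The acidic stalk gene AT3G44590 had 27.3% of 22 ends over 3 sites, the lowest of the cytosolic type. AT3G12370, AT5G15220 and GCD1 (AT5G62270), all of the organellar type, had 30% of 10, 30.8% of 13 and 34.6% of 26.

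Most member reads were complete across the coding sequence. Start and stop codon were both covered in 88.0% of member reads and 83.3% of reads of all genes, and an annotated intron chain was present in 85.2% and 82.2%. The shorter transcripts of the members stand beside these shares. Fractional counts held 0.523% of member reads and 0.280% of those of all genes, so the split between near-identical paralogues touched few reads outside genes such as AT1G58983.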

How the data were processed

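The authors made circular consensus reads, kept full-length non-chimeric ones with a poly(A) tail, aligned them to TAIR10 with minimap2 and converted them to end-labelled structures with Bookend. The deposited values are expected counts of reads per structure, not normalized for library size, in which reads with several alignments are split. The deposited files keep the replicates apart. Replicate 1 held 267716 reads and replicate 2 held 255215, plastid and mitochondrial reads included.

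Structures were assigned to the same-strand locus of the TAIR10.1 annotation that held at least 50% of their aligned bases. Its chromosome lengths fit the files. The members, the product classes and the gene lists were chosen with earlier results of these data known. Shares were taken per replicate (mean ± SD, n = 2), and starts, introns and 3′ ends from both replicates together. Fisher's exact test used counts rounded to whole numbers (scipy 1.17.1), with Benjamini-Hochberg adjustment (statsmodels 0.14.6) at 0.05, and was tested on simulated data. Families came from blastp 2.17.0 with proteins translated from the genome. Genes were named by rank within each measure (the 10 most-read members, members with 0 reads, the 5 highest and 5 lowest families, leaders and 3′ distances, the 8 highest for leader introns and retained introns, the 5 most dispersed 3′ ends) and from a list of developmental and ribosome-associated genes. Others were named after their values were seen. Alternatives changed the assignment, label, depth and window rules.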

Additional observations from a re-analysis of the deposited data

Results flagged for a closer look

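Reads on the strand opposite to a member were not used in any comparison above. There were 26 of them over 17 member loci, 16 in replicate 1 and 10 in replicate 2. Only 2 were cap-labelled, and no locus had more than 4.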

How the results depend on the processing

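The share of nuclear reads held by the members was 6.02% when only cytosolic-type members were counted and 7.07% and 7.03% with whole-number counts only and with at least 80% of a read on the gene. The cap-labelled share was 64.2% without the 4 members rich in unlabelled starts, a setting added after the data were seen. The median leader was 61 nt from the median cap-labelled start, 60 nt with every 5′ label and 58 nt with at least 30 cap-labelled reads. At that depth 35 members had a leader intron, since fewer were measured. The retained share was 0.193% with 25 nt on both sides, 0.168% in reads with both end labels and 0% as a median over introns. That median follows from the 79.2% of member introns without a retaining read, beside 84.4% of all introns. The median 3′ distance was 163 nt from the median labelled end. With at least 50 reads per gene, 9 members (5.08%) differed between the libraries by Fisher's exact test, beside 5.74% of all loci at that depth, and 0 did among genes of similar length (14 at an unadjusted p under 0.05), also added after the data were seen. Site II or telobox was found in 209 members, 192 with 100 nt upstream and 213 with 50 nt downstream added. With single replicates the values ran from 6.60% to 7.54% of nuclear reads, 63.1% to 63.5% cap-labelled, 59 to 59 nt of leader, 40 to 45 members with a leader intron, 0.198% to 0.201% retained, 160 to 161 nt to the 3′ end and 59.2% to 61.7% for the leading paralogue. No paired analysis was possible because there is 1 group. With a median of 59 reads a member, shares of single genes are imprecise, and many organellar-type members were too shallow for starts and ends.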
